A study of Mus musculus with 81 samples.

Results

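Macrophages from mice with floxed histone H3.3 genes, with and without a myeloid Cre, make up the third of 3 sets of bone marrow-derived macrophages (BMDMs) of the series, and the set is described here by its mRNA levels. It holds 6 of the 81 RNA-seq libraries of the series, chosen by their titles and library names, with 3 libraries from WT and 3 from H3.3 conditional knockout (cKO) mice. The WT mice carried floxed alleles of both H3.3 genes (H3f3a fl/fl H3f3b fl/fl) and no Cre, and the cKO mice carried the same alleles together with LysM cre/cre. All mice were C57BL/6, 8 to 10 weeks old, and marrow cells were grown for 6 to 8 days in medium conditioned by L929 cells, a source of the macrophage growth factor M-CSF. The labels call the replicates biological, name no mouse and give no harvest day for this set. Cre in LysM mice is driven by the Lyz2 locus, which is active in macrophages, monocytes and neutrophils, and cre/cre animals carry it in both copies of that gene. Deletion of the H3.3 genes and disruption of Lyz2 were therefore carried together by every cKO library, and their effects cannot be told apart here.

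H3.3 is the replacement form of histone H3. It is placed on DNA throughout the cell cycle, at active genes and at silent repeats, whereas H3.1 and H3.2 are placed during replication. Macrophages answer interferons and nucleic acids with a large programme of antiviral genes, in which the cytokine binds its receptor, a complex of signalling factors enters the nucleus and binds a short DNA element, the interferon-stimulated response element (ISRE).

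Each library had between 21702430 and 42994915 read pairs counted on genes. Levels are given as CPM, counts scaled to a common library size and for library composition, and changes as the log2 fold change of cKO against WT with its standard error (SE). A gene was called when its adjusted p was under 0.05 in edgeR's quasi-likelihood test with Benjamini-Hochberg adjustment over the 18083 genes tested. The library of WT replicate 1 stood apart from the others of its group, with a chi-square per degree of freedom of 82.1 and 51.3 against WT replicates 2 and 3 and of 9.3 between those, so for many lists and genes the value without it, or without another library that moved it, is given too. The spread behind every test was estimated from 27 BMDM libraries, which also held sets 1 and 2 and cKO BMDMs of 3 further genotypes, H3.3cKO:StingKO, H3.3cKO:MavsKO and H3.3cKO:Irf7KO. Libraries with the same number in this set (set 3) and in set 1 tended to deviate from their group means together. Correlations were 0.053 to 0.712 in WT and 0.206 to 0.53 in cKO. Pairs with different numbers spanned -0.713 to 0.468 in WT and -0.496 to 0.06 in cKO. WT replicate 3 had the 0.053, and 0.468 with WT replicate 2 of set 1. Set 1 was therefore not used as independent support. Finally, Xist lay at 0 to 0.0871 CPM in all 6 libraries of set 3 and at 1107 to 1229 CPM in set 2, while the Y-linked gene Ddx3y lay at 60.4 to 85.9 CPM in set 3 and at 0 to 0.0973 CPM in set 2. Sex and any other difference between sets 3 and 2 cannot be told apart.

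The targeted genes were checked first. H3f3a, 1 of the 2 genes that encode H3.3, lay at 60.1, 59.2 and 57.9 CPM in the WT libraries and at 7.71, 9.55 and 7.30 CPM in the cKO libraries. The groups were far apart, with a log2 fold change of -2.85 (SE 0.15, edgeR adjusted p = 1.39e-12). H3f3b, the other H3.3 gene, lay at 274, 225 and 232 CPM in WT and at 187, 202 and 193 CPM in cKO. All cKO libraries were below all WT libraries, yet the log2 fold change of -0.33 (SE 0.16) missed the threshold (edgeR adjusted p = 0.127), and it passed when the model held only the 18 WT and cKO libraries (edgeR adjusted p = 0.0258). The mean level in cKO was thus 13.9% of WT for H3f3a and 79.7% of WT for H3f3b, the more abundant of the pair, and cKO is used below as the name the labels give. The counts sum all exons of each gene. The floxed part of H3f3a is its second exon, so reads from its other exons are still counted, whereas that of H3f3b takes in all its exons.

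Lyz2, which encodes the lysozyme of macrophages, fell from 10250, 9232 and 8012 CPM to 6.68, 7.76 and 12.2 CPM (log2 fold change -9.99, SE 0.34, edgeR adjusted p = 5.76e-16). Its neighbour and near copy Lyz1, the Paneth cell lysozyme, lay at 3.74 to 6.08 CPM in WT and 3.92 to 5.58 CPM in cKO, and the groups overlapped. Of 11 tested genes around Lyz2, 3 were called higher and 3 lower, with a median log2 fold change of 0.09. Only 1 was lower without WT replicate 2, cKO replicate 1 or cKO replicate 3, and with only the 6 libraries in the model 1 was higher and none lower by edgeR. Mdm2, which restrains p53, was among them, at 112, 116 and 102 CPM in WT and 159, 161 and 163 CPM in cKO (log2 fold change 0.55, SE 0.12).

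The labelled cell type was present in both groups. Adgre1, which encodes the macrophage surface protein F4/80, lay at 852 to 1550 CPM in WT and 1151 to 1243 CPM in cKO, and Spi1, the myeloid master factor PU.1, at 262 to 270 and 249 to 294 CPM. Neither was called, and both groups overlapped. Itgam, the integrin CD11b, lay at 156, 119 and 115 CPM in WT and lower, at 97.8, 89.1 and 85.6 CPM, in cKO (log2 fold change -0.52, SE 0.12).

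Over the whole transcriptome, 6318 genes (34.9%) were called, 3064 (16.9%) higher and 3254 (18%) lower in cKO, and the median log2 fold change was -0.05. Every cKO library lay above every WT library for 20.8% of genes and below for 22.4%. These shares are the background for each list below. Changes beyond 1 on the log2 scale were made by 961 of the genes called higher and 798 of those called lower. In bulk RNA, fewer cells of a type and less RNA per cell cannot be told apart.

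**Figure D1:**
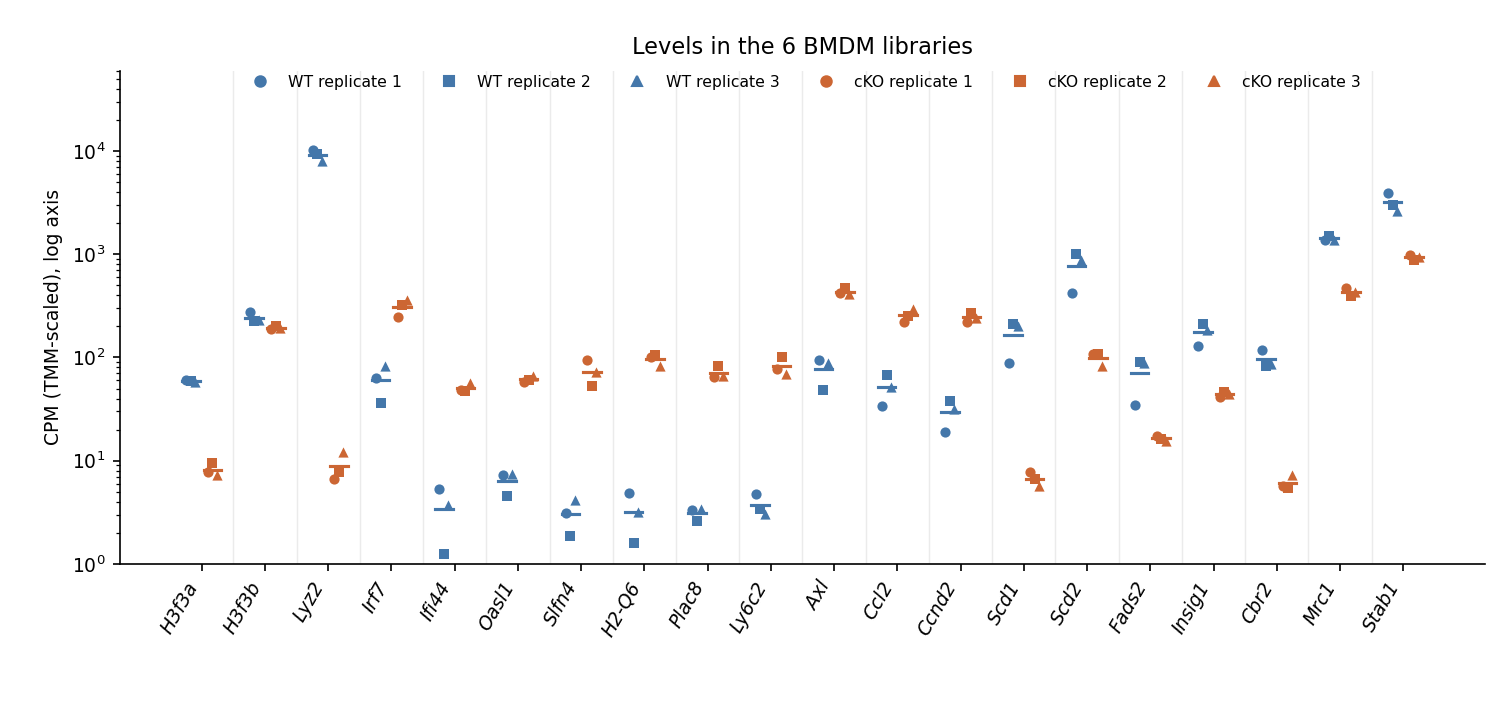
Level of 20 genes in each of the 6 BMDM libraries, in TMM-scaled CPM on a log axis; each point is 1 library, the shape gives the replicate number, and the bar is the group mean (n = 3). Interferon and monocyte genes such as Ifi44 and Ly6c2 lie near 1 to 5 CPM in WT and at 47 to 101 CPM in cKO, while Scd1 and Cbr2 lie at 83 to 209 CPM in WT and under 10 CPM in cKO.

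Genes of the interferon pathway were grouped by role, from ligands and receptors to effectors. Of the ligands, Ifnb1, which encodes interferon-β, had 0 counts in each WT library, which allows up to 3 counts, and 4, 3 and 2 counts in the cKO libraries. No count was found in any of the 6 libraries for Ifna1, Ifna2, Ifna4, Ifna5, Ifne or Ifng, and none of the 7 ligand genes had enough counts to be tested. Of 5 receptor genes tested, Ifnar1, a chain of the type I receptor, lay at 212, 207 and 206 CPM in WT and at 174, 172 and 159 CPM in cKO (log2 fold change -0.31, SE 0.06). Ifngr1, a chain of the interferon-γ receptor, also fell, from 247, 176 and 185 CPM to 142, 142 and 133 CPM (log2 fold change -0.54, SE 0.11). The call of Ifnar1 was lost without the filter on low counts (edgeR adjusted p = 0.0578). Ifnlr1, a chain of the interferon-λ receptor, was called higher at levels under 1 CPM in all libraries, a call lost without WT replicate 2, WT replicate 3 or cKO replicate 3.

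Of 19 signalling factors, 7 were called higher and 1 lower (median log2 fold change 0.15, and 0.39 without WT replicate 1), with 3 lower without WT replicate 2 or without WT replicate 3. Irf7, the factor that drives interferon-α genes, rose the most, from 62.5, 36.6 and 82.7 CPM to 249, 321 and 362 CPM (log2 fold change 2.36, SE 0.27, edgeR adjusted p = 3.83e-07). Usp18, which removes ISG15 and damps the receptor, rose from 16.2, 12.0 and 16.6 CPM to 50.2, 56.1 and 62.8 CPM (log2 fold change 1.91, SE 0.15). Socs1, a feedback inhibitor, rose by 1.12 (SE 0.22) on the log2 scale. Tyk2, a receptor-bound kinase, was the member called lower, with 131, 111 and 110 CPM in WT and 88.5, 86.2 and 84.4 CPM in cKO. The groups of Irf7, Usp18, Socs1 and Tyk2 did not overlap.

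Nucleic acid sensors and their adaptors moved both ways, with 8 of 16 called higher and 4 lower (median log2 fold change 0.23), and 9 and 2 without WT replicate 1 (median 0.42). Zbp1, a sensor of Z-form nucleic acids, rose from 23, 9.08 and 19.9 CPM to 52.0, 52.4 and 59.5 CPM (log2 fold change 1.65, SE 0.27). Cgas, which detects cytosolic DNA, rose from 10.8, 17.1 and 16.9 CPM to 33.9, 35.1 and 34.7 CPM (log2 fold change 1.22, SE 0.12). The RNA sensors Tlr3, Ifih1 and Ddx58 rose by 0.77, 0.75 and 0.69 on the log2 scale. In contrast, Tlr7, an endosomal RNA receptor, fell from 334, 279 and 311 CPM to 188, 176 and 182 CPM (log2 fold change -0.76, SE 0.11), and the adaptor Mavs fell from 57.5, 50.3 and 51.5 CPM to 36.0, 38.7 and 41.9 CPM. Tmem173, which encodes the DNA pathway adaptor STING, lay at 56.4 to 67.7 CPM in WT and 68.2 to 76.4 CPM in cKO, groups that did not overlap, and its log2 fold change of 0.24 was not called (edgeR adjusted p = 0.0799). It was called by DESeq2 (adjusted p = 0.0276).

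Most antiviral effectors rose. Of 52 tested, 37 were called higher and 1 lower, with a median log2 fold change of 0.75, and in 38 every cKO library lay above every WT library. Apol9b and Apol9a, near-identical apolipoprotein L genes that respond to interferon, were almost silent in WT. Apol9b had 5, 0 and 5 counts in WT and 272, 319 and 492 counts in cKO, a ratio of 85.3 after scaling for depth (95% exact interval 46.2 to 178). For Apol9a the counts were 1, 1 and 0 in WT and 38, 73 and 117 in cKO, a ratio of 89.8 (95% exact interval 24.6 to 746). Intervals here cover counting error only, and reads may be shared between these genes. Oas1g, an oligoadenylate synthetase that is active on double-stranded RNA, rose from 11.3, 9.51 and 12.6 CPM to 31.9, 32.4 and 35.4 CPM (log2 fold change 1.58, SE 0.11).

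The promoters of these 3 genes are shown because they are the antiviral genes with the largest rises whose promoter held the ISRE core, which reads GAAA, any 2 bases and GAAA, on either strand. The sequences are RefSeq promoters of GRCm38.p6 and run 5′ to 3′ on the gene's strand, from 250 bases before the start to 50 bases after it. Capitals mark the core, which matched at 2 overlapping positions in each.
Apol9b, chr15:77728822-77729121, plus strand: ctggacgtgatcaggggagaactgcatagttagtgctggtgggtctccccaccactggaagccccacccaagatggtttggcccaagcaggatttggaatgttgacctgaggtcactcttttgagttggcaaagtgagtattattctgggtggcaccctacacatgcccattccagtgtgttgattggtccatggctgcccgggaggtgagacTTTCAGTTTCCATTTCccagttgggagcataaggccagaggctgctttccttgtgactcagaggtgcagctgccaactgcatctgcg
Apol9a, chr15:77411031-77411330, minus strand: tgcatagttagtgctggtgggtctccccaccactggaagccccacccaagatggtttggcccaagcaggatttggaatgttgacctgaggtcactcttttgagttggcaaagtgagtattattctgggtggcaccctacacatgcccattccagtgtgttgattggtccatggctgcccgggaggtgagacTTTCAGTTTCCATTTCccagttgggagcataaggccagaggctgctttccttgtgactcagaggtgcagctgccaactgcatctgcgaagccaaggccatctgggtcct
Oas1g, chr5:120887564-120887863, minus strand: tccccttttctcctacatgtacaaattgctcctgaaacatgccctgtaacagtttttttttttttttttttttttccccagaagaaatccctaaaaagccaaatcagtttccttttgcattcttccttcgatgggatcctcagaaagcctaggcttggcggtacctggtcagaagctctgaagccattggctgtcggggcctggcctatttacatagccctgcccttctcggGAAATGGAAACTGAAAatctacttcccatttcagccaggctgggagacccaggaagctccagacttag

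Counted from the start of the gene, the first match lay at position -18 in Oas1g, as printed, and at positions -37 in Apol9b and -59 in Apol9a, on the opposite strand. The 2 Apol9 promoters shared a run of 278 bases, whereas neither shared more than 9 bases in a row with that of Oas1g. A promoter was at hand for 11225 of the genes tested, and 3.95% of these held the core, against 5.62% of genes called higher and 3.28% of genes called lower. The core stood in 6.72% of genes higher by over 1 on the log2 scale and 5.6% of those higher by over 2. For genes lower by over 1 it stood in 4.6%. Among lists, it stood in 17 of 42 promoters of antiviral effectors (40.5%), 9 of 10 of interferon-inducible GTPases (90.0%), 9 of 14 of Ifi200 and Schlafen genes (64.3%) and 5 of 16 of MHC class I and processing genes (31.2%). A second interferon element, TTCNNNGAA (GAS), searched on both strands, was found in 8.32% of all promoters, 8.67% of those of genes called higher and 8.44% of those called lower. A match is a run of letters in this window and not a bound site.

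Among the other effectors, Ifi44 rose from 5.35, 1.25 and 3.73 CPM to 48.8, 46.9 and 56.5 CPM (log2 fold change 3.85, SE 0.41). Oasl1, which restrains translation of Irf7, rose from 7.25, 4.56 and 7.43 CPM to 58.0, 60.1 and 66.3 CPM (log2 fold change 3.26, SE 0.23). Oas1a, a synthetase of the same family as Oas1g, rose by 0.99 (SE 0.14) on the log2 scale. The groups did not overlap for Ifi44, Oasl1 or Oas1a.

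All 15 tested genes of the Ifi200 and Schlafen families were called higher, with a median log2 fold change of 1.24 and no overlap between groups in any. Ifi200 proteins bind DNA in the nucleus and cytosol, and Schlafen proteins restrain growth and viral translation. Slfn4 rose the most, from 3.08, 1.87 and 4.13 CPM to 94.6, 52.3 and 71.8 CPM (log2 fold change 4.60, SE 0.33). Slfn1 followed, with 3.78, 0.896 and 2.13 CPM in WT and 29.7, 24.9 and 26.9 CPM in cKO, a log2 fold change of 3.54 that was 4.19 without WT replicate 1. Ifi213 rose from 5.32, 1.13 and 4.21 CPM to 42.2, 32.7 and 38.5 CPM, and the DNA sensor Ifi204 from 68.3, 40.5 and 71.3 CPM to 144, 153 and 158 CPM. Members of both families are close copies that lie side by side on chromosomes 1 and 11, so reads could be split between them.

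Interferon-inducible GTPases, which attack vacuoles that hold pathogens, were called higher in 12 of 16 cases and lower in none (median log2 fold change 0.90). Gbp4 and Gbp6, guanylate-binding proteins, lay under 1 CPM in each WT library and at 7.19 to 8.56 CPM and 3.98 to 5.38 CPM in cKO. Iigp1, an immunity-related GTPase, lay at 6.89, 1.68 and 2.26 CPM in WT and 17, 18.8 and 18.3 CPM in cKO (log2 fold change 2.27, SE 0.39, and 3.203 without WT replicate 1). Tgtp2, of the same family, rose from 2.26 to 4.44 CPM to 12.4 to 13.3 CPM.

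MHC class I genes and the machinery that loads them rose in 17 of 20 cases and fell in none (median log2 fold change 0.72). B2m, the light chain of every class I molecule, rose from 1244, 830 and 1108 CPM to 1984, 2019 and 2061 CPM (log2 fold change 0.93, SE 0.13). The non-classical genes H2-Q6 and H2-Q7 rose the most, H2-Q6 from 4.90, 1.60 and 3.17 CPM to 102, 105 and 82.2 CPM (log2 fold change 4.87, SE 0.42). H2-Q7 rose from 5.83, 1.52 and 4.08 CPM to 66.6, 72.4 and 54.2 CPM, and since these genes are close copies their separate values are uncertain. H2-Q4 and H2-T10 rose by 1.48 and 1.29 on the log2 scale.

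Of 11 MHC class II and costimulatory genes 1, Cd86, was called higher and none lower (median log2 fold change -0.11). The count lower was 1 without WT replicate 2 and 2 without cKO replicate 2 (medians -0.30 and -0.26), with the replicate number as a block 1 was called each way, and with only the 6 libraries in the model none was called by edgeR. Cd86, a ligand of CD28, lay at 15, 5.65 and 5.56 CPM in WT and 19.2, 15.6 and 15.8 CPM in cKO, and its log2 fold change of 0.93 was 1.59 without WT replicate 1, while its call was lost in 4 other alternatives. The summed level of the list was 830 CPM in WT replicate 1 against 284 and 295 CPM in WT replicates 2 and 3 and 374 to 561 CPM in cKO. Ciita, the master factor of class II genes, showed the same split, with 50.5, 8.69 and 10.5 CPM in WT and 10.3, 15.7 and 10.6 CPM in cKO. Without WT replicate 1 the median of the list turned to 0.38, with 3 genes called higher, and the log2 fold change of Ciita turned to 0.34 (edgeR adjusted p = 0.583).

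**Figure D2:**
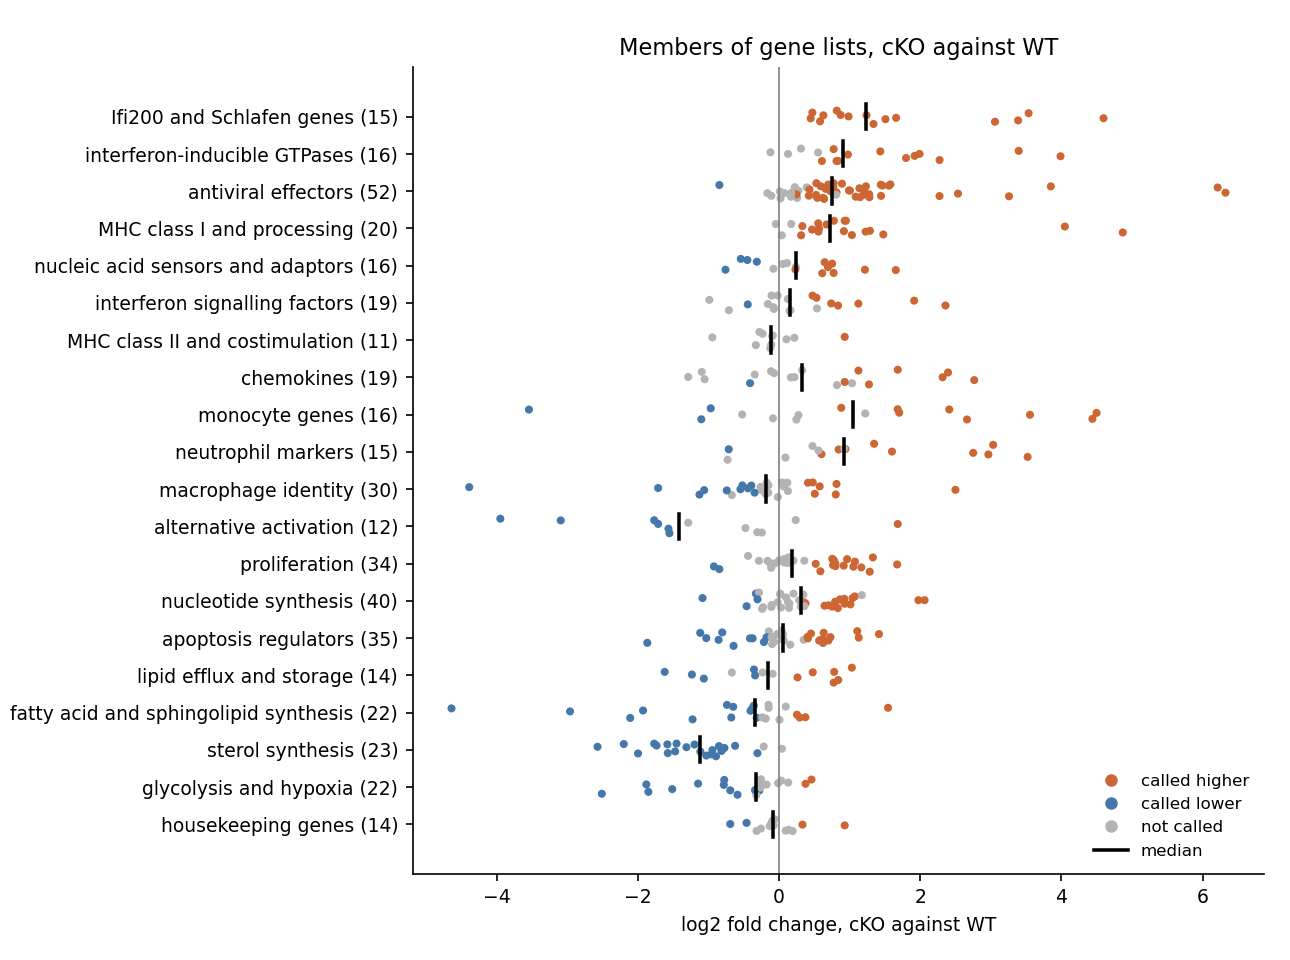
Log2 fold change of cKO against WT for each tested member (points) of 20 gene lists, with the number tested in brackets and the median as a black line; orange points were called higher and blue points lower at an adjusted p under 0.05, and grey points were not called. The Ifi200 and Schlafen, GTPase, antiviral and MHC class I lists lie mostly above 0 (medians 1.24, 0.90, 0.75 and 0.72), and sterol synthesis lies below (median -1.12).

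Other experiments of the series gave a readout of interferon response that used none of these libraries. In WT day 8 BMDMs, 12 hours of interferon-γ raised 1374 of 12054 genes tested (11.4%) beyond 1 on the log2 scale. These made up 16.1% of the genes called higher in set 3 and tested in both, and 36.9% of those higher by over 1 on the log2 scale. They made up 9.57% of those called lower, 15.2% of those lower by over 1 and 11.2% of all genes. Read the other way, 411 of 1349 interferon-γ-raised genes (30.5%) were called higher and 259 (19.2%) lower in set 3, against 21.2% and 22.5% of the 12029 genes tested in both. With the stricter limit of 2 on the log2 scale, 229 of 528 (43.4%) were higher and 57 (10.8%) lower.

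In cKO BMDMs treated with antibodies, 290 of 17183 genes (1.69%) were lower with an antibody against the type I receptor chain IFNAR1 than with a control antibody. They were 4.19% of the genes called higher in set 3 and 10.6% of those higher by over 1 on the log2 scale. They were 0.508% of those called lower and 0.715% of those lower by over 1, against 1.62% of all genes. Of the 268 tested in set 3, 119 (44.4%) were higher and 16 (5.97%) lower, against 17.2% and 19.1% of the 16510 genes tested in both. Against cKO cells with no antibody only 24 genes were lowered, and of these 22 were called higher in set 3 and none lower. Among 471 genes that were higher in set 3 by over 1 on the log2 scale and tested in both experiments, 296 (62.8%) were in neither list. The lists held only 11.2% (interferon-γ) and 1.62% (IFNAR1) of all genes, so most genes lay outside both whatever their change. The ISRE core stood in 3 of 229 promoters of these 296 genes (1.31%), against 3.95% of all genes tested. Genes of both lists had been left out of the 296 and not of all genes. The lower share can follow from that choice, and no conclusion is drawn from it. Ccl2 and Ccl7, described next, were higher with the IFNAR1 antibody, by 1.55 and 1.92 on the log2 scale, while Ly6c2 and Plbd1 were lower by a log2 fold change of -4.47 and -4.10.

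**Figure D3:**
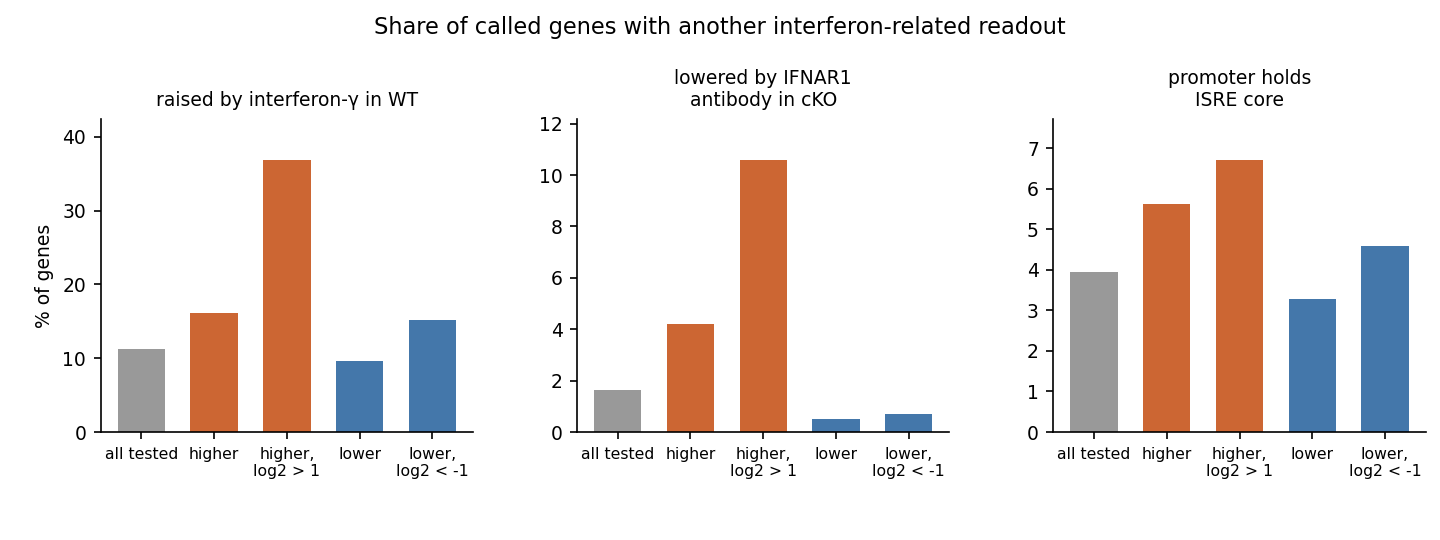
Share of genes, in %, that were raised by interferon-γ in WT day 8 BMDMs (left), lowered by IFNAR1 antibody against control antibody in cKO (middle) or hold the ISRE core in their promoter (right), among all genes tested in set 3 (grey) and those called higher (orange) or lower (blue). The share is highest among genes higher by over 1 on the log2 scale, at 36.9%, 10.6% and 6.72%, against 11.2%, 1.62% and 3.95% of all genes.

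Of 19 chemokine genes 7 were called higher and 1 lower (median log2 fold change 0.33, and 0.86 without WT replicate 1). Ccl2, the main ligand of the monocyte receptor CCR2, rose from 34.1, 68.3 and 51.9 CPM to 221, 254 and 292 CPM (log2 fold change 2.32, SE 0.24). Its relatives Ccl7 and Ccl12 rose too, Ccl7 from 13.1, 29.0 and 22.7 CPM to 121, 140 and 178 CPM and Ccl12 from 1.63, 2.96 and 2.87 CPM to 11.5, 11.4 and 15.6 CPM. Ccl22, which attracts regulatory T cells, rose by 1.68 (SE 0.44) at levels under 3 CPM. Ccl9 was the gene called lower, with 522, 653 and 597 CPM in WT and 428, 463 and 442 CPM in cKO.

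Among 18 inflammatory cytokine and mediator genes, 7 were called higher and 1 lower (median log2 fold change 0.15). Without WT replicate 1 it was 9 and 1 (median 0.66), and without WT replicate 3 the median was 0.0228. Tnf rose from 23.3, 28.6 and 22.3 CPM to 75.5, 79.5 and 73.7 CPM (log2 fold change 1.62, SE 0.13, edgeR adjusted p = 1.75e-09). Csf1, which encodes M-CSF, rose from 8.31, 7.13 and 4.56 CPM to 24.9, 22.5 and 28.1 CPM (log2 fold change 1.90, SE 0.24). Il12b, the p40 chain of interleukin-12, had 2, 0 and 1 counts in WT and 61, 79 and 49 counts in cKO, a ratio of 49.6 (95% exact interval 16.7 to 243), and its fitted log2 fold change was 5.54, or 6.26 without WT replicate 1. Il1rn, the antagonist of interleukin-1, lay at 19.1, 7.56 and 8.29 CPM in WT and 30.7, 25.7 and 31.2 CPM in cKO, a rise of 1.31 (SE 0.45) that lost its call in 5 alternatives. Il15 fell by 0.52 (SE 0.11) on the log2 scale.

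Of 16 monocyte genes 8 were called higher and 3 lower (median log2 fold change 1.05, and 1.83 without WT replicate 1), with 1 lower without cKO replicate 3. Plac8 lay at 3.35, 2.61 and 3.43 CPM in WT and 64.1, 82.7 and 66.2 CPM in cKO (log2 fold change 4.50, SE 0.39, edgeR adjusted p = 6.59e-09). Ly6c2, the surface marker of classical monocytes, rose from 4.78, 3.43 and 3.04 CPM to 77.7, 101 and 69.2 CPM, and Plbd1 from 14.5, 7.48 and 3.26 CPM to 108, 84.4 and 110 CPM (log2 fold change 3.55, and 4.22 without WT replicate 1). Ly6a, the stem cell antigen Sca-1, is not a member of this list and also responds to interferon. It rose from 21, 8.22 and 16.1 CPM to 287, 292 and 318 CPM (log2 fold change 4.30, SE 0.37). Some members of the list did not rise. Ccr2, which encodes the receptor CCR2, lay at 249, 99.9 and 195 CPM in WT and 223, 156 and 134 CPM in cKO. F13a1 and S100a4 were called lower (log2 fold change -1.10 and -0.97), with groups that overlapped. Ms4a4a fell by 3.54 on the log2 scale, from 49.1, 3.23 and 8.47 CPM to 2.59, 1.28 and 1.42 CPM, with WT replicate 1 far above the other WT libraries and a log2 fold change of -1.73 without it.

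Of 30 macrophage identity genes, 7 were called higher and 10 lower (median log2 fold change -0.18). The median was -0.0439 without WT replicate 1, -0.0643 without cKO replicate 1 and -0.30 without cKO replicate 2. Axl, a receptor for dying cells, rose from 93.8, 48.3 and 87.9 CPM to 419, 468 and 414 CPM (log2 fold change 2.50, SE 0.24). Mertk, a related receptor with the same task, fell from 142, 86.0 and 88.6 CPM to 49.9, 48.1 and 53.8 CPM (log2 fold change -1.06, SE 0.15). Both changes left no overlap between groups. Fcgr1 and Msr1, receptors for antibodies and modified lipoproteins, rose by 0.81 and 0.80 on the log2 scale, and the factor Maf fell by 1.13 on the log2 scale. Marco, a scavenger receptor, fell from 2.84, 10.2 and 9.03 CPM to 0.227, 0.405 and 0.392 CPM. Irf8, a factor of monocyte development, overlapped between groups, at 213 to 361 CPM in WT and 261 to 343 CPM in cKO.

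The alternative activation list had 6 of 12 genes called lower and 1 higher (median log2 fold change -1.42, and -0.30 without WT replicate 1). Mrc1, the mannose receptor CD206, fell from 1369, 1505 and 1384 CPM to 473, 396 and 429 CPM (log2 fold change -1.71, SE 0.14, edgeR adjusted p = 1.61e-09). Stab1, a scavenger receptor for modified lipoproteins, fell from 3938, 2995 and 2602 CPM to 991, 878 and 929 CPM (log2 fold change -1.77, SE 0.13). Arg1, arginase, fell from 9.16, 11.9 and 5.86 CPM to 1.39, 0.911 and 0.871 CPM, and Cd163, the haemoglobin receptor, from 65.7, 38.0 and 44.4 CPM to 16.1, 16 and 18.4 CPM. Cbr2, a carbonyl reductase that marks resident macrophages, fell by 3.95 on the log2 scale, from 118, 82.6 and 86.2 CPM to 5.67, 5.47 and 7.30 CPM. Chil3 went the other way, from 30.3, 16.5 and 16.8 CPM to 65.7, 89.0 and 50.7 CPM. Hpgd, which breaks down prostaglandins and is not a member of this list, fell by 3.45 (SE 0.41) on the log2 scale. Another 2 genes with large falls, Plxdc2 (-2.72) and Nxpe5 (-2.53), lie outside these lists. Without WT replicate 1, at 119 CPM against 15.9 and 46.7 CPM in the others, the change of Plxdc2 was -1.76.

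The sterol synthesis pathway fell almost as a whole. None of its 23 genes was called higher and 21 were called lower, with a median log2 fold change of -1.12, and without WT replicate 1 it was 22 and -1.27. The summed level was 1167, 1900 and 1794 CPM in WT and 661, 729 and 717 CPM in cKO. Insig1, which senses sterols, fell from 130, 210 and 186 CPM to 41.0, 46.7 and 44.1 CPM (log2 fold change -1.9985, SE 0.20, edgeR adjusted p = 6.82e-08), and the enzyme gene Fdps fell by 2.57 on the log2 scale. WT replicate 1 was the lowest WT library for Insig1 and Fdps and still lay above every cKO library. The sterol element TCACNCCAC, searched on both strands, stood in 1 of 15 promoters of the list (6.67%), against 1.46% of all.

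Of 22 genes of fatty acid and sphingolipid synthesis, 12 were called lower and 4 higher (median log2 fold change -0.34). Scd1, which makes monounsaturated fatty acids, fell from 88.1, 209 and 202 CPM to 7.81, 6.62 and 5.66 CPM (log2 fold change -4.64, SE 0.57), and Scd2 from 424, 1013 and 886 CPM to 107, 108 and 83.5 CPM (log2 fold change -2.96, SE 0.40). Fads2, a desaturase of polyunsaturated fatty acids, fell by 2.11 on the log2 scale and Lpin1, a phosphatidate phosphatase, by 1.93 on the log2 scale. Scd1 and Scd2 are close copies, and both fell without overlap between groups.

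Genes of lipid efflux and storage split, with 6 of 14 called higher and 5 lower, and 3 lower without WT replicate 1 or without cKO replicate 3. Plin2, which coats lipid droplets, rose from 448, 371 and 382 CPM to 627, 787 and 732 CPM (log2 fold change 0.84, SE 0.14), and Lpl, lipoprotein lipase, from 1173, 1238 and 1556 CPM to 2350, 2387 and 2048 CPM. The nuclear receptors Nr1h3 (LXRα) and Pparg rose by 1.03 and 0.78 on the log2 scale. Abca1, the cholesterol exporter, lay at 1272, 568 and 623 CPM in WT and 437, 375 and 364 CPM in cKO, a log2 fold change of -1.07 that was -0.60 without WT replicate 1. Fabp5, a fatty acid carrier, fell by 1.62 on the log2 scale.

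Of 34 proliferation genes 15 were called higher and 2 lower (median log2 fold change 0.18, and 0.40 without WT replicate 2). Ccne1 and Ccne2, which drive entry into S phase, and Cdc6 and Mcm2, which license replication, rose by 1.67, 1.33, 1.28 and 1.17 on the log2 scale. Mcm2, a subunit of the replicative helicase, lay at 32.5, 99.1 and 85.1 CPM in WT and 144, 181 and 160 CPM in cKO. The 2 genes called lower were Cenpa, the centromeric histone H3, from 94.5, 145 and 130 CPM to 65.4, 62.1 and 66.9 CPM and Ccnb2, a mitotic cyclin, from 64.0, 122 and 110 CPM to 53.5, 53.8 and 57.1 CPM. Mki67, the antigen Ki-67, lay at 455, 940 and 757 CPM in WT and 728, 593 and 670 CPM in cKO and overlapped. The summed level of the list was 2200, 4792 and 4170 CPM in WT and 4406 to 4686 CPM in cKO. Without WT replicate 1 the count was 14 higher and 4 lower and the median turned to -0.09, and with only the 6 libraries in the model 8 were higher and 2 lower.

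Ccnd2, a D-type cyclin, rose the most of the cell cycle genes named, from 18.9, 37.6 and 31.4 CPM to 222, 272 and 243 CPM (log2 fold change 3.07, SE 0.19, edgeR adjusted p = 5.34e-11). Myc rose from 16.6, 25.2 and 20.3 CPM to 55.1, 60.4 and 59.0 CPM, E2f3 from 16.8, 22.9 and 21.1 CPM to 36.3, 40.0 and 39.0 CPM, and Cdkn1a, the cell cycle inhibitor p21, from 168, 190 and 142 CPM to 220, 257 and 263 CPM. The groups of all 4 genes were apart.

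Of 40 nucleotide synthesis genes 16 were called higher and 4 lower (median log2 fold change 0.31, and 0.13 without WT replicate 1). Ctps, CTP synthase, rose from 2.81, 8.77 and 8.03 CPM to 21.8, 29.3 and 24.8 CPM (log2 fold change 1.97, SE 0.23), and Rrm2 and Uck2 rose by 1.07 and 1.04 on the log2 scale. The purine genes Gmpr and Impdh1 fell by 1.08 and 0.46 on the log2 scale. In WT replicate 1 the level of Ctps, Rrm2 and Uck2 was below that of the other WT libraries.

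Regulators of apoptosis moved both ways, with 13 of 35 called higher and 10 lower (median log2 fold change 0.05). Among the BH3-only killers, Pmaip1 (Noxa) rose from 13.9, 9.82 and 7.77 CPM to 30.6, 25.6 and 28.4 CPM (log2 fold change 1.42, SE 0.19) and Bcl2l11 (Bim) by 0.62 (SE 0.14). Bbc3 (Puma) fell from 37.0, 34.2 and 30.3 CPM to 17.7, 19.9 and 18.6 CPM (log2 fold change -0.86, SE 0.14), and Bmf fell from 62.6, 17.5 and 25.5 CPM to 9.69, 10.9 and 8.58 CPM, a log2 fold change of -1.87 that was -1.15 without WT replicate 1. Among the survival genes, Bcl2 rose from 9.25, 22.1 and 19.5 CPM to 37.5, 36.3 and 36.7 CPM and Bcl2l1 from 90.4, 168 and 141 CPM to 204, 234 and 223 CPM. Fas, a death receptor, fell by 1.12 on the log2 scale.

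Targets of p53 were called higher in 10 of 27 cases and lower in 5 (median log2 fold change -0.02, and 0.0052, 0.21 and 0.10 without WT replicate 1, WT replicate 2 and cKO replicate 1). Plk3, a stress kinase, rose by 1.49, beside Ccnd2, Cdkn1a and Mdm2 given above. Sesn1 fell from 273, 186 and 212 CPM to 82.5, 82.3 and 80.8 CPM, and Trp53inp1 by 1.07 on the log2 scale, beside Bbc3 and Fas above and Btg2 below. The list therefore held well-known targets on both sides of 0.

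None of 10 replication-coupled H3 genes, which encode H3.1 and H3.2, was called in either direction by edgeR (1 with the replicate block), and the median log2 fold change was 0.13. It was -0.19 without WT replicate 1 and 0.26 without cKO replicate 1, and 1 gene was called higher without WT replicate 2 (median 0.37) or without WT replicate 3 (median 0.29). Hist1h3e lay at 145, 340 and 323 CPM in WT and 210, 303 and 264 CPM in cKO, and Hist1h3c at 89.6, 268 and 237 CPM and 180, 255 and 234 CPM. The groups overlapped for both, and near-identical copies make these counts uncertain. Of 9 other histone variants, 5 were called lower and 2 higher (median log2 fold change -0.47), and 3 were lower without WT replicate 2 or without cKO replicate 1. The count higher was 1 without WT replicate 2, WT replicate 3 or cKO replicate 1 and 0 by edgeR without cKO replicate 2. The linker histone H1f0 fell from 151, 102 and 96.1 CPM to 57.8, 66.3 and 69.6 CPM (log2 fold change -0.85, SE 0.16), and H2afv and H2afz, which encode forms of H2A.Z, fell by 0.80 and 0.70 on the log2 scale. The groups of H2afz overlapped, at 174.6 to 382 CPM in WT and 152 to 208 CPM in cKO, and its call was lost without WT replicate 2 (edgeR adjusted p = 0.104) or without cKO replicate 1.

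The list of 16 H3.3 chaperones and readers also held factors of replication-coupled H3. Of these genes 7 were called higher and 2 lower, and 3 and 1 without WT replicate 1. The count lower was also 1 without any 1 of the cKO libraries. Hira, Ubn2, Cabin1 and Atrx were not called, Daxx was called higher (log2 fold change 0.40) and Ubn1 lower (-0.28). Chaf1b, Chaf1a and Nasp, which handle replication-coupled H3, rose by 0.80, 0.68 and 0.62 on the log2 scale, or 0.52, 0.39 and 0.35 without WT replicate 1, and the calls of Chaf1a and Nasp were lost without WT replicate 1 (edgeR adjusted p = 0.0515 and 0.0522). Silencing factors of heterochromatin and retroelements were called higher in 9 of 21 cases and lower in 3 (median log2 fold change 0.18). Hells and Uhrf1, which maintain DNA methylation at replication, rose by 1.28 and 1.12 on the log2 scale.

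Genes of glycolysis and the hypoxia response fell in 12 of 22 cases and rose in 2 (median log2 fold change -0.33), and the count higher was 1 without any 1 library other than cKO replicate 1. Egln3, an oxygen sensor and target of HIF, fell from 30.0, 31.6 and 26.4 CPM to 4.86, 6.38 and 4.29 CPM (log2 fold change -2.51, SE 0.27). Ankrd37 fell by 1.88 on the log2 scale and the glycolytic enzyme Pgk1 from 251, 370 and 325 CPM to 179, 204 and 203 CPM. Vegfa, a growth factor for vessels, fell from 212, 79.4 and 81.0 CPM to 50.2, 46.4 and 34.4 CPM, a log2 fold change of -1.51 that was -0.88 without WT replicate 1.

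Immediate early genes rested on WT replicate 1. Their summed level was 4307 CPM in that library, 1278 CPM in each of the other WT libraries and 1553 to 2126 CPM in cKO. With it, 2 of 20 were called higher and 2 lower (median log2 fold change -0.47), and without it 7 were higher and none lower (median 0.43). Without WT replicate 2 there were 1 higher and 6 lower, without WT replicate 3 there were 1 and 4 (medians -0.88 and -0.90), without cKO replicate 1 there were 1 and 3 (median -0.78), and without cKO replicate 2 or 3 none was lower by edgeR. Btg2, which restrains growth, lay at 377, 46.5 and 54.2 CPM in WT and 78.8, 32.2 and 30.8 CPM in cKO, with overlap, and its log2 fold change of -1.76 became -0.10 without WT replicate 1 (edgeR adjusted p = 0.924). Ier3 went from -1.29 to -0.26 in the same way, and the calls of both were also lost without cKO replicate 2 or 3. Dusp1, a phosphatase of MAP kinases, lay at 70.6, 22.8 and 25.0 CPM in WT and 113, 74.9 and 77.8 CPM in cKO, a log2 fold change of 1.16 that was 1.89 without WT replicate 1 and lost its call without WT replicate 2, WT replicate 3 or cKO replicate 1.

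**Figure D4:**
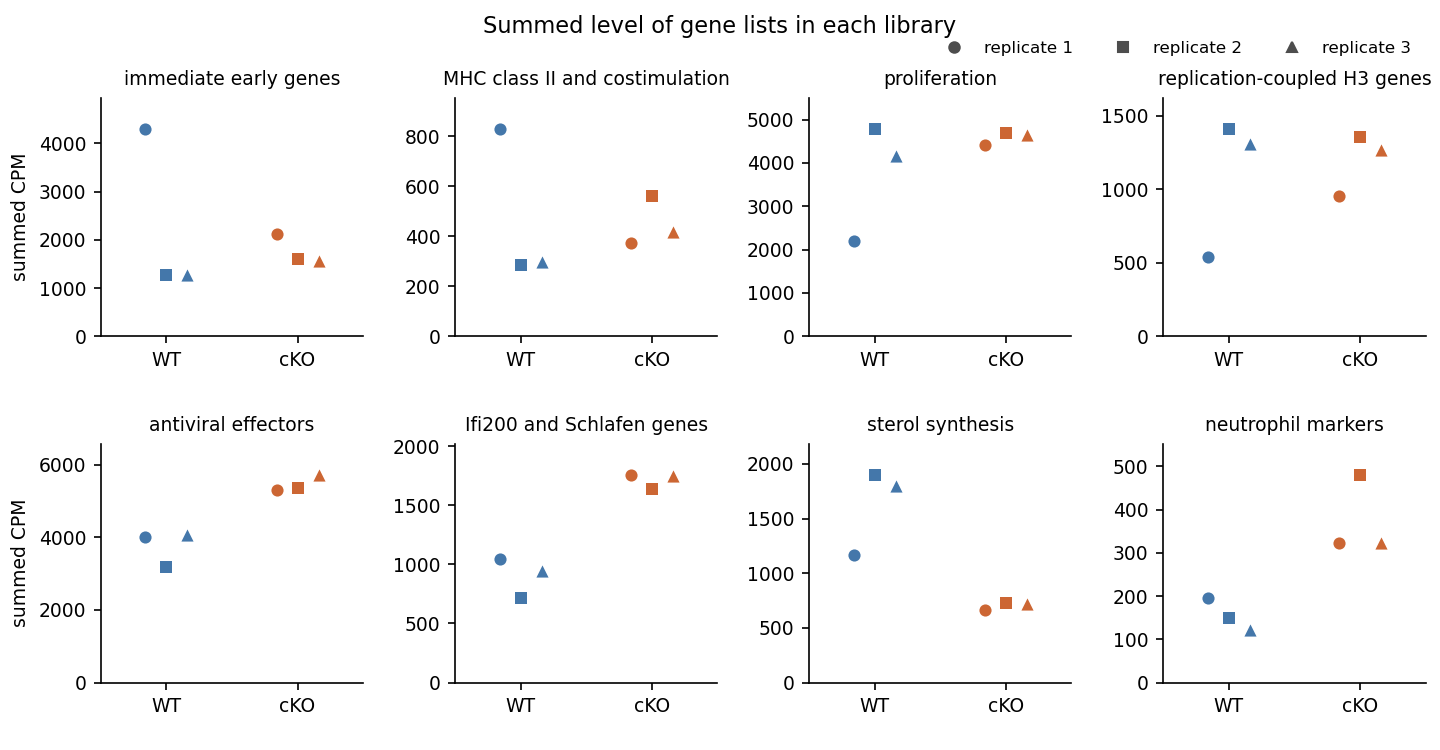
Summed CPM of 8 gene lists in each library of set 3, on linear axes that start at 0, with WT in blue, cKO in orange and the replicate number as the shape. WT replicate 1 is highest for immediate early (4307) and MHC class II (830) genes and lowest for proliferation (2200) and replication-coupled H3 (541.5) genes, while for antiviral, Ifi200 and Schlafen, sterol and neutrophil genes the groups do not overlap.

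Fc receptors, complement and phagocytic receptors split evenly, with 5 of 20 called each way (3 higher without WT replicate 2). Fcgr4 rose from 49.4, 22.7 and 28.9 CPM to 56.3, 62.8 and 66.1 CPM, a call lost without WT replicate 2. Of 27 lysosomal genes 9 were higher and 7 lower (median log2 fold change -0.06), and without WT replicate 1 there were 4 and 2 (median 0.0055). The count higher was 5 without cKO replicate 2 or 3, and the count lower was 3 without cKO replicate 1 and 4 without cKO replicate 3. Ctss, a protease that prepares antigen for MHC class II, lay at 1681, 1052 and 1369 CPM in WT and 1689, 2153 and 1984 CPM in cKO, and its call as higher was lost without WT replicate 2. Of 11 matrix metalloproteinase genes and inhibitors, 2 were higher and 3 lower (1 lower without WT replicate 1), with Mmp13 at 5.71, 2.73 and 4.0 CPM in WT and 14.9, 13.9 and 16.5 CPM in cKO.

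Markers of other marrow cells were also measured. Of 15 neutrophil genes 9 were called higher and 1 lower, a call lost without WT replicate 1, WT replicate 2, cKO replicate 1 or cKO replicate 3, and their summed level was 121 to 196 CPM in WT and 323 to 480 CPM in cKO. The granule genes Ctsg, Prtn3, Elane and Mpo, made by young granulocytes and progenitors, lay at 1.09 to 7.07 CPM in WT and 9.56 to 52.3 CPM in cKO, with cKO replicate 2 the highest. Ly6g, which defines mature neutrophils, had too few counts to be tested. Of 9 B cell genes 6 were called higher and 1 lower, but the summed level was lower in cKO (50.2 to 72.7 CPM) than in WT (98.2 to 199 CPM). Most of the sum came from 1 member, Ighm, the heavy chain of IgM, which fell from 187, 92.4 and 112 CPM to 38.0, 48.5 and 30.3 CPM. Pax5 and Ms4a1 were called higher on 125 and 126 counts in cKO against 10 each in WT, most of them in cKO replicates 2 and 3. Without WT replicate 1, which held 7 of the 10 WT counts of each, their log2 fold changes rose from 3.21 and 3.23 to 4.13 and 4.15. With only the 6 libraries in the model 2 B cell genes were called higher and 1 lower. The count higher was 3 without WT replicate 2, cKO replicate 2 or cKO replicate 3.

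Of 13 dendritic cell genes 8 were called higher and 2 lower (1 without WT replicate 2), and the summed level overlapped between groups (297 to 372 CPM in WT and 346 to 410 CPM in cKO). Ccr7, which guides cells to lymph nodes, rose from 1.12, 0.662 and 0.825 CPM to 4.38, 7.60 and 3.48 CPM and Flt3, a progenitor receptor, by 1.85 on the log2 scale. Mast cell, basophil and eosinophil genes were called higher in 8 of 10 cases (5 without cKO replicate 2) and lower in 1, at a summed 7.33 to 9.77 CPM in WT and 12.9 to 21.1 CPM in cKO. T and NK cell genes had 3 of 14 members tested and none called by edgeR (1 higher with the replicate block and 1 lower without WT replicate 2), and 7 erythroid and megakaryocyte genes had 2 called lower (1 without WT replicate 1 or without any 1 cKO library). Of 19 matrix and stromal genes 6 were called higher and none lower, 13 of 16 when only the 6 libraries entered the model, and the summed level was 47.4 to 59.2 CPM in WT and 117 to 126 CPM in cKO. Col4a1 and Col4a2, basement membrane collagens, rose by 2.66 each on the log2 scale. Some of these lists, such as the neutrophil genes, held more genes called higher than lower, as the monocyte and interferon lists did, and others did not. Whether they varied together across libraries, and their part in those results, was not tested.

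The change in set 3 was compared with that in set 2, which has WT and cKO libraries of its own. In set 2, 3803 genes were called (21%), 9.74% higher and 11.3% lower. Of the genes called higher in set 3, 861 were called higher in set 2, which is 28.1% of those in set 3 and 48.9% of those in set 2, and 202 were called lower. Of those called lower in set 3, 874 were called lower in set 2 (26.9% and 42.8%) and 102 higher. The change itself differed between the sets for 3535 genes (19.5%) by edgeR's interaction test, 1901 (10.5%) with the larger value in set 3 and 1634 (9.04%) with the smaller. Against set 1 it differed for 0 genes by edgeR and 1 by DESeq2, with 279 at an unadjusted p under 0.05. Against the mean of sets 1 and 2 it differed for 428 genes (2.37%), or 699 with the replicate number as a block. Set 1 may not be independent of set 3, which the tests against set 1 and against that mean do not take into account.

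Lists differed in how many of their genes changed unequally between the sets. For antiviral effectors, set 2 had 44 of 52 called higher and the change differed between sets for 10 of them. Sterol synthesis had 20 of 23 called lower in set 2 and 1 gene whose change differed. For Ifi200 and Schlafen genes all 15 were higher in both sets, yet the size of the change differed for some. It was smaller in set 3 for Ifi203 and Mndal (differences of -0.71 and -0.78) and larger for Slfn4 and Slfn9 (1.18 and 0.56). For chemokines set 2 had 2 of 19 called higher and 4 lower, and 5 changes were larger in set 3. For proliferation the change was larger in set 3 for 12 of 34 genes and smaller for 7, and for nucleotide synthesis larger for 14 of 40 and smaller for 2.

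Ccl2 and Tnf are examples of genes that rose in set 3 and not in set 2. The log2 fold change of Ccl2 was 2.32 in set 3 and -0.33 in set 2 (edgeR adjusted p of the difference = 6.63e-06), and that of Tnf 1.62 and -0.01 (edgeR adjusted p of the difference = 1.21e-06). Il15 turned, with -0.52 in set 3 and 0.81 in set 2, and Cenpa and Ccnb2, which fell by 0.92 and 0.85 in set 3, rose by 0.81 and 0.92 in set 2, each with a difference that was called. Myc rose by 1.49 in set 3 and had a log2 fold change of -0.47 in set 2, also called. In contrast, Ly6c2, Plac8 and Mrc1 changed by 4.44, 4.50 and -1.71 in set 3 and by 4.02, 4.30 and -1.40 in set 2, and for none of the 3 was the difference called.

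Levels differed more between the WT libraries of the sets than between the cKO libraries. Over the 9025 genes whose mean log2 CPM reached 3, the median size of the difference in level between sets 3 and 2 was 0.32 on the log2 scale for WT and 0.15 for cKO, and it was larger in WT for 75.3% of genes (76.2% without WT replicate 1). Among the 2563 of them whose change differed between the sets, these medians were 0.68 and 0.16. These genes were picked by the gap between their WT and cKO differences, so the wider gap follows in part from that choice. Itgax, the integrin CD11c, shows the pattern, with 13.2, 6.47 and 10.6 CPM in WT of set 3 and 81.2, 101 and 70.8 CPM in WT of set 2. In cKO it lay at 24.1, 28.3 and 28.1 CPM in set 3 and 12.9, 11.8 and 14.3 CPM in set 2, so that it rose by 1.41 in the first and fell by 2.70 in the second on the log2 scale. P2ry14, a receptor for UDP sugars, lay at 13.2 to 19.7 CPM in WT of set 3 and 2.16 to 3.16 CPM in WT of set 2, and at 16.1 to 17.4 CPM and 14 to 14.6 CPM in cKO.

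**Figure D5:**
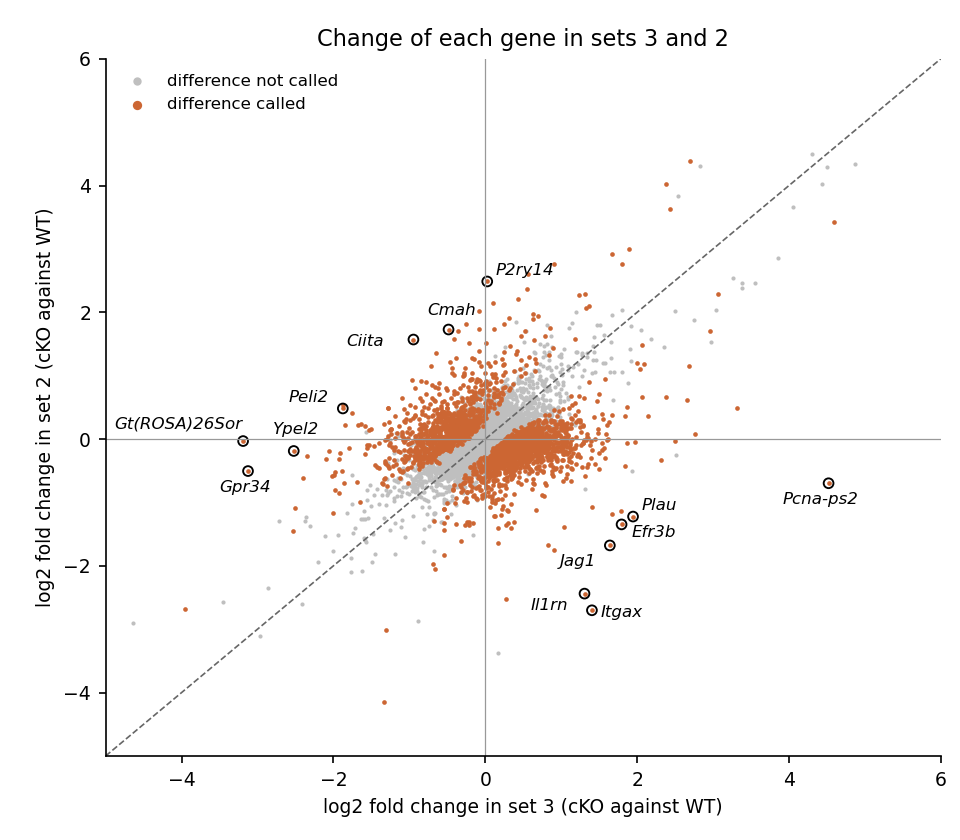
Log2 fold change of cKO against WT in set 3 (horizontal) and set 2 (vertical) for genes whose mean log2 CPM reached 3; orange points have a change that differed between the sets at an adjusted p under 0.05, the dashed line marks equal change, and genes beyond the axes such as Lyz2 are not drawn. The ringed genes are those with the largest differences between sets, from Itgax (1.41 and -2.70) to P2ry14 (0.03 and 2.49).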

How the data were processed

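RNA of 6 BMDM libraries was sequenced after rRNA depletion. The authors trimmed reads with Cutadapt and aligned them to mm10 with STAR, whose gene tables were deposited as raw counts, 1 per read pair and summed over exons. The study names the pipeline that ran these steps, and versions of Cutadapt and STAR themselves are not given in the sources used here. The unstranded column of deposited counts was used, so a gene and its antisense partner cannot be told apart. Rows that name no gene were left out and held 7.16 to 8.98% (unmapped), 8.43 to 12.8% (multimapping), 12.3 to 19.4% (no feature) and 4.42 to 5.4% (ambiguous) of a library's total with genes.

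Counts of 27 BMDM libraries were fitted together in edgeR 4.0.16 (R 4.3.3) with TMM scaling, a model of 9 groups (WT and cKO of sets 1, 2 and 3, and H3.3cKO:StingKO, H3.3cKO:MavsKO and H3.3cKO:Irf7KO) that share 1 estimate of spread (18 residual degrees of freedom) and filterByExpr (smallest count 10, smallest total 15). This kept 18083 of 54079 genes. Contrasts were cKO against WT in set 3 and the difference of that change from set 2, set 1 and their mean. The interferon-γ and antibody libraries were fitted separately with the same test. Same-numbered WT and cKO libraries of set 3 deviated from their group means together (correlations of 0.181 to 0.437). Pairs with different numbers spanned -0.504 to 0.251, so the ranges overlapped. The shared number was taken from the labels as a pairing and fitted as a block in an alternative. P-values measure the spread between libraries, which may be technical, since no label ties a library to a mouse. Other alternatives were DESeq2 1.42.0, RLE scaling, filters on low counts, fewer libraries, 1 strand only, robust estimation and leaving out each library in turn. Fits were tested on simulated data, and figures were drawn with matplotlib 3.10.9.

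The named genes were the targeted genes, the 10 genes each way with the largest called change (mean log2 CPM of at least 3, groups apart), up to 4 called genes each way in each list (or the 2 with the highest level where none was called), genes the study itself named, and the 4 genes each way that differed most between sets. 252 genes met this rule. The 3 promoters were chosen as stated. The set, its lists and its rules were chosen with earlier results of these data known. A few genes that met the rule are not reported here.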

Additional observations from a re-analysis of the deposited data

Results flagged for a closer look

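The results below were picked out because the change of cKO against WT differed between sets in edgeR's interaction test (adjusted p under 0.05). Sex and any other difference between sets 3 and 2 cannot be told apart. The change differed between sets 3 and 2 for 3535 genes and between set 3 and the mean of sets 1 and 2 for 428 genes.

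Between sets 3 and 2, the log2 fold change was larger in set 3 by 5.22 (SE 0.38) for Pcna-ps2, a pseudogene copy of the replication clamp gene Pcna, by 4.11 (SE 0.36) for Itgax, by 3.75 (SE 0.64) for Il1rn and by 3.32 (SE 0.33) for Jag1, a Notch ligand. The difference was -3.16 (SE 0.85) for the non-coding gene Gt(ROSA)26Sor, -2.62 (SE 0.64) for the receptor gene Gpr34, -2.52 (SE 0.76) for Ciita and -2.46 (SE 0.18) for P2ry14. Jag1 lay at 12.7 to 13.8 CPM in WT and 36.6 to 46.5 CPM in cKO of set 3, and at 127 to 151 CPM in WT and 29.7 to 52.0 CPM in cKO of set 2.

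Against the mean of sets 1 and 2, the difference was 2.06 (SE 0.31) for Itgax, 1.83 (SE 0.29) for Jag1, 1.73 (SE 0.28) for Plau, which encodes urokinase, and 1.71 (SE 0.34) for Efr3b. It was -1.34 (SE 0.22) for Peli2, a ubiquitin ligase of Toll-like receptor signalling, -1.22 (SE 0.15) for P2ry14, -1.20 (SE 0.24) for Cmah, a sialic acid hydroxylase, and -1.20 (SE 0.25) for Ypel2. The change differed between sets 3 and 1 for 0 genes by edgeR, so these differences rest mainly on set 2. Set 1 may not be independent of set 3, so the SEs and the count of this contrast are uncertain. Groups of 3 libraries are too small for a test of single outlying libraries.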

How the results depend on the processing

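Of the 143 named genes that were called, all kept their direction and 128 kept their call under every alternative run. With only the 6 libraries in the model, 4158 genes were called, 1757 of them lower. The estimate of spread also drew on set 1, which may not be independent of set 3. Without the set 1 libraries 6601 genes were called, 3392 higher and 3209 lower. A fold change limit of 1 on the log2 scale left 1759 genes, 961 higher and 798 lower, and 1156 whose change differed between sets 3 and 2. Leaving out 1 library gave 5088 to 6257 called genes, and the replicate block, which ended no named call, 6876. The count against the mean of sets 1 and 2 was 841 with DESeq2, 1040 with no filter on low counts, 237 with the 18 WT and cKO libraries, 699 with the replicate block and 90 with that limit. It was 179 to 843 with 1 library left out, at 220 without WT replicate 1, 843 without WT replicate 2, 194 without cKO replicate 2 and 179 without cKO replicate 3. Against set 1 it was 1 with DESeq2, 10 with no filter and 0 to 1 with 1 library left out. The interferon-γ list held 553 genes above 2 on the log2 scale, and the IFNAR1 list 24 against no antibody. Some genes that were not called changed sign. Lyz1 went to -0.24 on one strand only and to -0.0657 to 0.33 with 1 library left out, and Hist1h3e to 0.022 with the replicate block, 0.0706 with that block and only the 6 libraries, and -0.36 to 0.15 with 1 library left out. That last range was -0.18 to 0.45 for Hist1h3c, -0.36 to 0.13 for Mki67, -0.0132 to 0.11 for Spi1, -0.0195 to 0.39 for Irf8, -0.11 to 0.35 for Adgre1, -1.33 to 0.34 for Ciita and -0.10 to 0.19 for P2ry14. The cause was not tested.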

Other observations

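Gt(ROSA)26Sor, a non-coding gene at a locus often used for transgenes, lay at 34.7, 24.4 and 46.1 CPM in WT of set 3 and at 3.69, 3.75 and 4.05 CPM in cKO. In set 2 it lay at 5.61, 28.5 and 5.90 CPM in WT and at 4.16, 31.2 and 4.05 CPM in cKO, with both libraries numbered 2 high. Pcna-ps2 lay at 0.967, 1.87 and 2.74 CPM in WT of set 3 and at 34, 46.3 and 43.5 CPM in cKO, and at 0.597 to 1.31 CPM in set 2. It can share reads with Pcna, which rose by 0.77 on the log2 scale in set 3 and had a log2 fold change of -0.50 in set 2. No explanation was tested.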
